A study of Mus musculus with 22 samples.

Results

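In all, 6 single amacrine cells of the mouse retina were divided by their own level of Isl1, a LIM homeodomain transcription factor, into 3 Isl1-positive and 3 Isl1-negative cells. They were part of a set of 22 retinal cells, of which 13 were ganglion cells and 3 were photoreceptors. A cell counted as positive when its Isl1 signal was at least 1000 after every array was scaled to a mean of 500, trimmed by 2% at each end. The positive cells were J6, taken at embryonic day 16.5 (E16.5), and B1 and F6, both taken on the day of birth (P0). The negative cells A4, D1 and G3 were all P0. Isl1 signal was 28600 in J6, 30000 in B1 and 22800 in F6, against 2.18 in A4, 8.71 in D1 and 62.1 in G3, so the threshold lay between G3 and F6 with no cell near it. The cells were thus chosen by their measured Isl1 signal, which is given as a description only.

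The labels give the strain CD1 for J6 and no strain, genotype or treatment for the P0 cells. Per the study's design text, cell types were assigned after profiling, from the profiles themselves. No animal or litter is named, so cells of 1 stage may come from 1 animal, each type at each stage counts as 1 sample, and no test was made. Each comparison is given instead as the values of the cells, with the difference of the mean log2 signals of the 2 groups (positive minus negative). Because J6 is the one E16.5 cell and is positive, each main difference is also given over the 5 P0 cells alone.

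Amacrine cells are the interneurons of the inner retina, and most release GABA or glycine. Starburst amacrine cells are the cholinergic kind: they release acetylcholine together with GABA, have their cell bodies in both the inner nuclear and the ganglion cell layer, and supply the directional inhibition of direction-selective ganglion cells. Isl1 marks starburst cells among mouse amacrine cells, and it is also made by many ganglion and bipolar cells. Sox2 is kept on in starburst cells after the progenitor stage. Choline acetyltransferase (Chat), which makes acetylcholine, and the vesicular acetylcholine transporter Slc18a3, which loads it into vesicles, share 1 cholinergic gene locus.

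The 250 bases upstream of the start sites of 5 genes described here are shown, from RefSeq on GRCm38.p6 and in the direction of the gene. Isl1 (chr13:116309689-116309938, minus strand) is the splitting gene, Slc18a3 (chr14:32464851-32465100, minus strand) and Chat (chr14:32465910-32466159, minus strand) are the cholinergic pair, and Sox2 (chr3:34649745-34649994, plus strand) and Nr4a2 (chr2:57124004-57124253, minus strand) are the transcription factors that differed most in each direction but for Plagl1. Capitals mark matches, on either strand, to the homeodomain core TAAT (reverse ATTA), the Sox core ACAAT (reverse ATTGT) and the nuclear receptor half-site AGGTCA (reverse TGACCT).
Isl1: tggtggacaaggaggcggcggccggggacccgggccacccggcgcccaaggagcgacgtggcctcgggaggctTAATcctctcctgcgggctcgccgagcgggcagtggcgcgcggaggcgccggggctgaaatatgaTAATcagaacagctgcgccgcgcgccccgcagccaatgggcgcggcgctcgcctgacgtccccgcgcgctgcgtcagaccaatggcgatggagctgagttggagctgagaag
Slc18a3: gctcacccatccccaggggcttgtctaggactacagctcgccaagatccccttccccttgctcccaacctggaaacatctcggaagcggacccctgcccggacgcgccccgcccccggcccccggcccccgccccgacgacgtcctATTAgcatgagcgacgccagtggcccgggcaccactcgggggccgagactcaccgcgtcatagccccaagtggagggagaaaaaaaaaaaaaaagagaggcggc
Chat: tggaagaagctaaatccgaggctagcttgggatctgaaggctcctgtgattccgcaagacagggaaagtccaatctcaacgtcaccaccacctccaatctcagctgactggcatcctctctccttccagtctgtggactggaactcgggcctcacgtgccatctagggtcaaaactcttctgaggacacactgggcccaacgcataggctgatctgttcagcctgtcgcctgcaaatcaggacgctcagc
Sox2: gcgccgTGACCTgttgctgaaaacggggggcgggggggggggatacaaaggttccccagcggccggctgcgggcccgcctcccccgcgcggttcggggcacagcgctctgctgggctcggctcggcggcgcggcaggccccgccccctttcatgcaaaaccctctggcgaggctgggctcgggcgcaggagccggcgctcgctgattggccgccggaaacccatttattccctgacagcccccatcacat
Nr4a2: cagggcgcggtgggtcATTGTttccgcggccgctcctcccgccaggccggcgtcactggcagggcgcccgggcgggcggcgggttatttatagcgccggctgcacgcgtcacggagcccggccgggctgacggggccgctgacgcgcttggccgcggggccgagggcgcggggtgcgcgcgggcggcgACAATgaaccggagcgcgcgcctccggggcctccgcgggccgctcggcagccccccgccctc
The start sites of Slc18a3 and Chat lie 1059 bases apart on the same strand, with Slc18a3 downstream. A TAAT match stood 2 times in the Isl1 window and 1 time in the Slc18a3 window, AGGTCA stood 1 time in the Sox2 window, ACAAT stood 2 times in the Nr4a2 window, and the Chat window held none of the 3. These letters are common: over 32851 upstream windows of this length, 54.9% held TAAT, 27.7% held ACAAT and 14% held AGGTCA. Of the 15 genes with the largest difference toward the positive cells, 12 had a window, and 3 of these held TAAT, 1 held ACAAT and 2 held AGGTCA. Of the 15 with the largest difference toward the negative cells, 11 had a window, and 2 held TAAT, 2 held ACAAT and 0 held AGGTCA.

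The cells differed in how many genes they showed. A gene was called detected at a signal of 1000 or more (log2 9.97), and signals under 200 (log2 7.64, the floor) were set to 200. Genes detected were 3718 in J6, 2484 in B1 and 4132 in F6, with a mean of 3445 ± 857 (SD, n = 3 cells), against 1928 in A4, 2030 in D1 and 2972 in G3, with a mean of 2310 ± 576 (SD, n = 3 cells). The groups overlapped, since G3 held more genes than B1. J6 also stood apart at the low end of the scale, with 57.9% of genes above the floor against 22.7 to 31.9% in the other 5 cells. D1 carried transcripts of other classes: of 12 markers of Müller glia and astrocytes it had 5 detected, among them Vim (log2 14.39), Slc1a3 (12.52), Car14 (12.93) and Dkk3 (14.29), while each other amacrine cell had 1 or 2. Of 17 measured cycle and progenitor genes, D1 and F6 each had 3 detected and every other amacrine cell 1. Those of D1 were Top2a (13.49) and Fgf15 (13.55), undetected in the other 5, and Ccnd1 (14.60), which was also at 13.28 in B1 and 10.93 in F6. D1 was also the one cell with a bipolar marker detected, Prkca (14.99), of 11 measured. Results are therefore also given without D1, and the part these transcripts play in any difference was not tested.

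Of 18194 genes on the array, the 4534 detected in at least 2 of the 6 amacrine cells were compared. A gene is counted as higher or lower when the groups differed by at least 4-fold (2 on the log2 scale) and no cell of one group overlapped with the other. By this rule 437 genes were higher in the Isl1-positive cells, 9.64% of those compared, and 106 were lower, 2.34%. The splitting gene Isl1 is 1 of the 437. Over the P0 cells alone 550 genes (12.1%) were higher and 135 (2.98%) were lower, and 410 of the 437 and 101 of the 106 were in these sets. The median difference over all compared genes was 0.54 toward the positive cells. A gene could enter the comparison through 1 group alone, and 215 of the 437 higher genes were at the floor in all 3 negative cells, so the size of their difference is set by that floor.

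The starburst markers separated the groups. Isl1 aside, 12 of 13 listed starburst genes were named on the array and 7 of these were compared. Of the 7, 6 were higher in the positive cells and 0 lower, both in 6 cells and within P0. Over all compared genes the shares in 6 cells were 9.64% higher and 2.34% lower. Between 6 and 7 of the 12 were detected in each positive cell and 0 in each negative cell, and their summed log2 signal above the floor was 33.2 to 37.1 in the positive cells against 0.1 to 1.1 in the negative cells. The median difference of the 7 was 4.59, beside 0.54 for all genes, and 2.87 over all 12 measured genes with no filter. All 7 were undetected in every negative cell and so entered the comparison through the positive cells alone, which fixes their direction. The list was drawn up with earlier results of these cells known, and is no independent evidence.

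**Figure D1:**
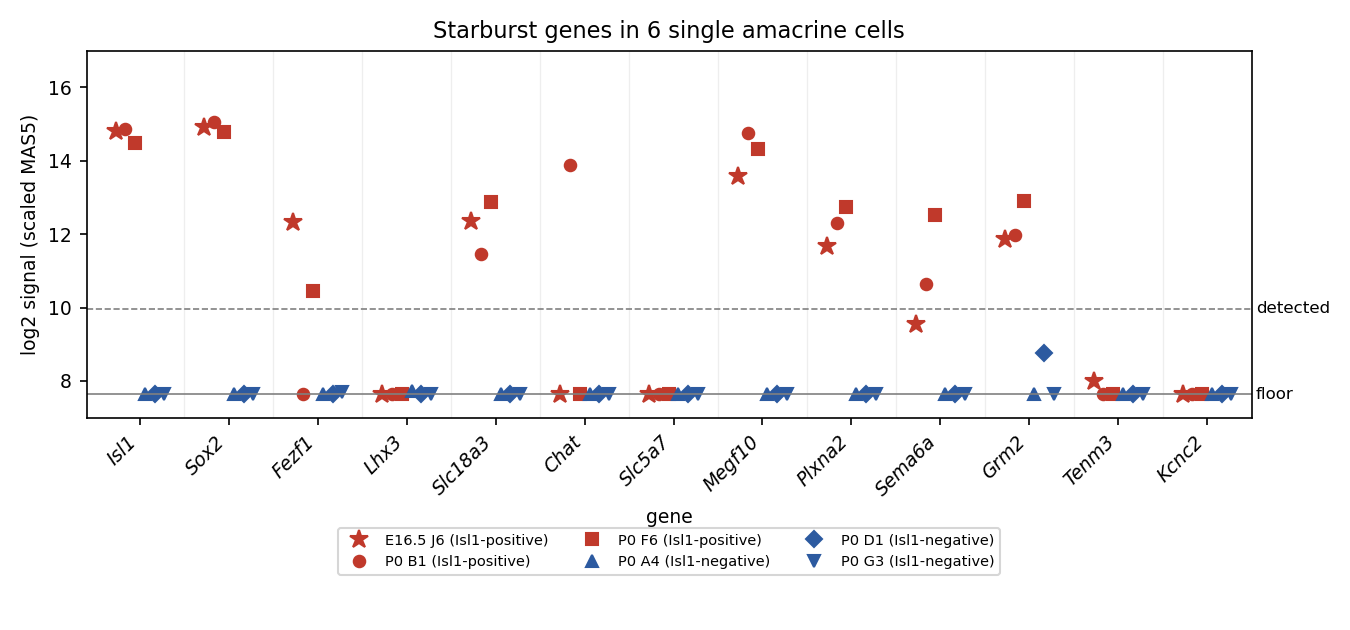
Log2 signal of starburst genes in each of the 6 amacrine cells, 1 point per cell, with the floor of 7.64 and the detection level of 9.97 marked. Sox2, Megf10, Slc18a3 and Plxna2 lie at 11.47 or above in all 3 Isl1-positive cells and at the floor in all 3 negative cells, while Chat is above the floor in B1 alone.

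Sox2, a transcription factor of progenitors that starburst cells retain, had a log2 signal of 14.93 in J6, 15.07 in B1 and 14.78 in F6, and was at the floor in A4, D1 and G3. The positive cells lay within 0.29 of each other, and the difference was 7.28 in 6 cells and 7.28 within P0. Sox2ot, the long noncoding transcript that overlaps Sox2, followed the same pattern, at 14.09, 14.40 and 14.72 in J6, B1 and F6 against the floor in the negative cells. Megf10, the transmembrane receptor that spaces starburst cells into a mosaic, was at 13.60, 14.77 and 14.33 in J6, B1 and F6 and at the floor in the negative cells, a difference of 6.59. It was detected in none of the 13 ganglion cells and none of the 3 photoreceptors. Sox2, by contrast, was detected in 2 of 13 ganglion cells and 1 of 3 photoreceptors.

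The cholinergic genes themselves were unevenly detected. Slc18a3 was at 12.36 in J6, 11.47 in B1 and 12.89 in F6 and at the floor in the negative cells, a difference of 4.60 (4.53 within P0), and no other cell of the 22 had it. Chat was at 13.88 in B1 and at the floor in the other 5 amacrine cells and in all ganglion cells and photoreceptors, so it was detected in 1 of the 22 cells and was not among the genes compared. Slc5a7, the choline transporter that recovers choline for Chat, was at the floor in all 6 amacrine cells. Of the 3 positive cells, B1 alone thus showed both Chat and Slc18a3, and J6 and F6 showed Slc18a3 without Chat.

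The guidance receptor pair of the starburst list was higher as well. Plxna2, a plexin that starburst dendrites use with its ligand Sema6a to pair and to separate their layers, was at 11.67, 12.30 and 12.73 in J6, B1 and F6 and at the floor in the negative cells, a difference of 4.59. The mean of the 4 Plxna2 probe sets gave 2.02. Sema6a was at 9.54 in J6, under the detection level, at 10.63 in B1 and at 12.51 in F6, against the floor in the negative cells, a difference of 3.25, but 2 of its 3 probe sets differed by less than 1 and the mean of all 3 gave 1.28. Grm2, a metabotropic glutamate receptor of starburst cells, was at 11.88, 11.97 and 12.91 in J6, B1 and F6 against 7.64 in A4, 8.75 in D1 and 7.64 in G3, a difference of 4.24. Fezf1, a zinc-finger factor of the starburst list, was at 12.34 in J6 and 10.46 in F6, at the floor in B1, and at most 7.70 in the negative cells. The positive cells thus divided among themselves by Fezf1, and it was not counted as higher because B1 overlapped with the negative cells. Lhx3, Tenm3 and Kcnc2 were undetected in all 6 cells.

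Isl1 aside, the 15 genes with the largest difference toward the positive cells included Sox2 and Megf10 of the starburst list, and Sox2ot, all described above. Differences of the 15 were 5.54 to 7.36, set by the floor for those at 7.64 in every negative cell. Plagl1, an imprinted zinc-finger transcription factor, headed them, at 14.88 in J6, 15.55 in B1 and 14.59 in F6 and at the floor in A4, D1 and G3 (7.36; within P0, 7.42). Of its 3 probe sets, 1 differed by less than 1 between the groups. Megf11, the paralog of Megf10 that takes part in the spacing of horizontal cells, was at 13.09, 15.17 and 13.17 in J6, B1 and F6 against the floor, a difference of 6.17. Of the 2 Megf11 probe sets, 1 differed by less than 1, and their mean gave 3.08. Megf11 was not particular to these cells, since 10 of 13 ganglion cells had it. Gpr37, an orphan receptor coupled to G proteins, was at 14.58, 14.13 and 14.11 against 8.84, 8.58 and 7.69, and the positive cells lay within 0.47 of each other.

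Synaptic and matrix genes stood among the 15 too. Rims1, a scaffold of the presynaptic active zone, was at 11.50 in J6, 15.45 in B1 and 14.93 in F6 against the floor in every negative cell. It was lowest of the 3 in the E16.5 cell, and the difference was 6.32 in 6 cells and 7.55 within P0. Vcan, the matrix proteoglycan versican, was at 14.13, 14.71 and 12.94 against the floor (6.28), but 5 of its 8 probe sets differed by less than 1. Plch1, a phospholipase C of the eta class, was at 13.78 in both B1 and F6, somewhat lower in J6, and at the floor in the negative cells (5.54).

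Chromatin proteins formed a further part. Ehmt2, the histone H3 lysine 9 methyltransferase G9a, was at 12.77, 15.06 and 13.59 in J6, B1 and F6 against 7.64, 8.89 and 7.64 in A4, D1 and G3 (5.74). Trim28, a corepressor for zinc-finger proteins, was at 13.71, 13.85 and 12.60 against 7.64, 8.19 and 7.64 (5.56). Hmgn1, a nucleosome-binding protein, was at 14.61, 14.74 and 14.30 against 7.64, 8.08 and 11.27 (5.55), and was the only one of the 15 detected in a negative cell, G3. Ganglion cells widely had these 3 genes, 8, 11 and 12 of 13 in the order given. Ankrd28, a regulatory subunit of a protein phosphatase (5.93), Qdpr, which recycles tetrahydrobiopterin (5.71), and Thyn1 (5.54) completed the set.

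**Figure D2:**
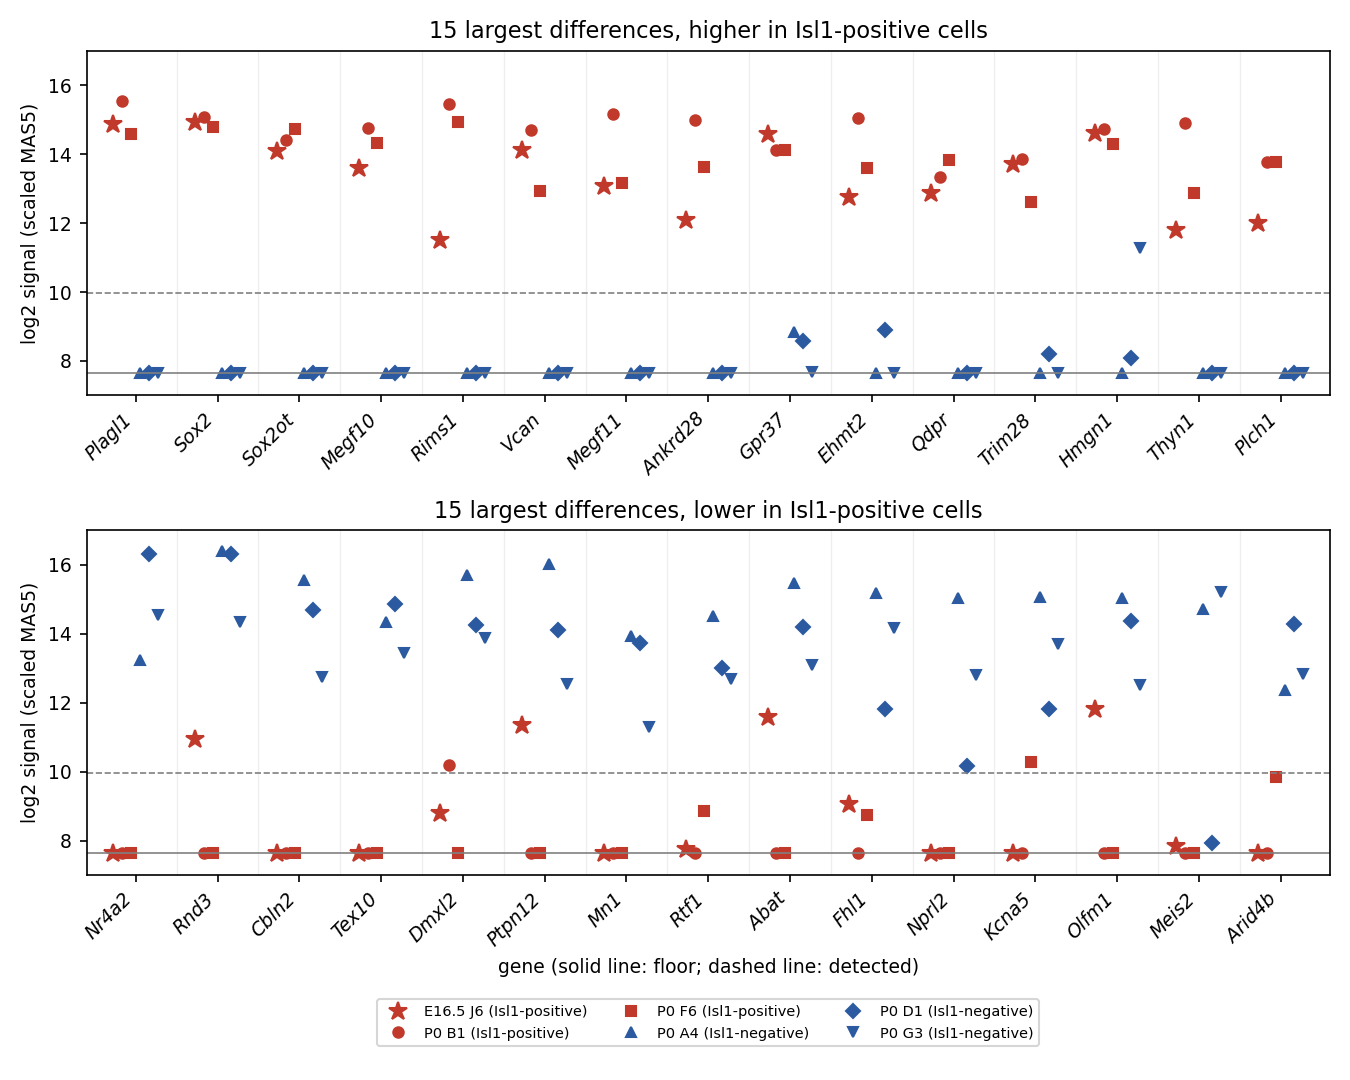
Log2 signal in each of the 6 amacrine cells for the 15 genes with the largest difference in each direction, 1 point per cell. The groups do not overlap for any of the 30 genes, which the choice of genes requires, and the 3 negative cells are under the detection level for all 15 higher genes but Hmgn1, where G3 reaches 11.27.

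In the other direction, Nr4a2 was the first gene. Nr4a2 (Nurr1), an orphan nuclear receptor that marks a set of GABAergic amacrine cells, was at the floor in J6, B1 and F6 and at 13.25 in A4, 16.30 in D1 and 14.53 in G3, a difference of -7.05 in 6 cells and -7.05 within P0. Of the other cells, 1 of 13 ganglion cells had it, and 2 of its 6 probe sets differed by less than 1. Each of the 6 amacrine cells had either Isl1 or Nr4a2 and not both. Since both genes were named when the split was drawn up, this exclusion is a description. Of the 34 transcription factors of amacrine subtypes measured, 11 were compared. Of these, 0 were higher and 1, Nr4a2, was lower, beside 9.64% and 2.34% of all genes (within P0, Tbx2 was higher). The median of the 11 was 1.15, beside 0.54 for all genes.

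Cell surface and signalling genes followed. Cbln2, a secreted organiser of synapses, was at 15.57, 14.68 and 12.74 in A4, D1 and G3 and at the floor in the positive cells (-6.69). Rnd3, a small GTPase that lowers actomyosin tension, was at 16.41, 16.32 and 14.35 in A4, D1 and G3 against 10.96 in J6 and the floor in B1 and F6, so its difference was -6.94 in 6 cells and -8.05 within P0. Rnd3 was common elsewhere, in 11 of 13 ganglion cells. Kcna5, a voltage-gated potassium channel of the shaker family, was at 15.07, 11.83 and 13.71 against 7.64 in J6 and B1 and 10.29 in F6 (-5.01), and no ganglion cell or photoreceptor had it. Olfm1, a secreted olfactomedin, was at 15.05, 14.38 and 12.50 against 11.82 in J6 and the floor in B1 and F6 (-4.94), all 13 ganglion cells had it, and 1 of its 3 probe sets differed the opposite way.

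Nuclear proteins made up another part of the lower genes. Tex10 was at 14.34, 14.86 and 13.44 in A4, D1 and G3 and at the floor in the positive cells (-6.57). Mn1, a transcriptional coregulator, was at 13.92, 13.73 and 11.30 against the floor (-5.34), and 1 ganglion cell had it. Rtf1, which works with the Paf1 complex in transcription elongation, differed by -5.31. Arid4b, a chromatin protein, differed by -4.78, but 4 of its 6 probe sets differed by less than 1. Meis2, a homeodomain factor of amacrine cells, rested on A4 (14.73) and G3 (15.20): D1, at 7.93, was just above J6, at 7.85, and undetected. The rest were Dmxl2, a synaptic vesicle protein (-5.75), the tyrosine phosphatase Ptpn12 (-5.35), Fhl1, a LIM domain protein (-5.25), and Nprl2, part of the GATOR1 complex that restrains mTORC1 (-5.02). Of the 2 Fhl1 probe sets, 1 differed by less than 1, and their mean gave -2.44.

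**Figure D3:**
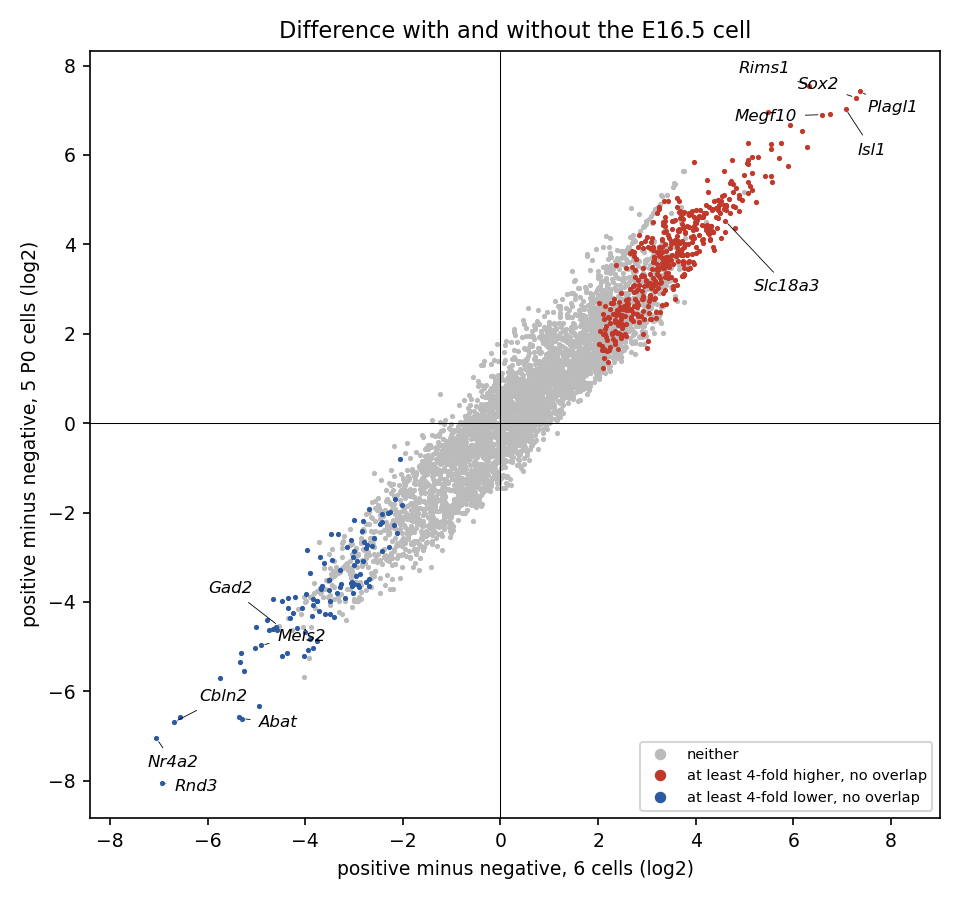
Difference in mean log2 signal, Isl1-positive minus Isl1-negative, over all 6 amacrine cells (horizontal axis) and over the 5 P0 cells (vertical axis), 1 point per gene for the 4534 compared genes. Red and blue points are at least 4-fold higher or lower with no overlap in 6 cells. The axes share the 5 P0 cells, so points near the diagonal are partly fixed. Isl1 chose the groups.

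The GABA machinery was measured in 7 of 8 listed genes, and 4 were compared. Of these, 0 were higher and 2 lower in the positive cells, beside 9.64% and 2.34% of all genes. The median of the 4 was -3.50, beside 0.54 for all genes. Abat, the GABA transaminase that breaks GABA down, was at 15.48, 14.19 and 13.09 in A4, D1 and G3 against 11.57 in J6 and the floor in B1 and F6 (-5.30; within P0, -6.61). Of its 2 probe sets, 1 differed by less than 1, and the mean over probe sets gave -2.24. Slc6a11, a GABA uptake transporter, was at 9.78, 10.82 and 10.98 against 7.64 in J6 and B1 and 8.91 in F6 (-2.46), but its difference was -0.13 with an equal number of genes per cell and -1.23 over the mean of its probe sets, and with equal numbers the list had 1 lower gene and a median of -1.98. Of the enzymes that make GABA, Gad1 was detected in all 6 cells, at 11.91, 14.75 and 14.10 in J6, B1 and F6 and 15.33, 13.30 and 14.60 in A4, D1 and G3, and the groups overlapped (-0.82; within P0, 0.02). Gad2 was at 15.34 in A4 and 13.57 in G3 and at the floor in D1 and all positive cells, so D1 overlapped with the positive group and it was not counted (-4.54). Of the 2 probe sets of Gad2, 1 differed by less than 1, and the mean over probe sets gave -2.18. The vesicular transporter Slc32a1 and the glycine transporters Slc6a9 and Slc6a5 were undetected in all 6 cells by the probe set taken for each. For Slc32a1, 1 of 4 probe sets differed by 1 or more toward the positive cells.

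Of 15 measured general amacrine genes, 9 were compared. Of these, 1 was higher and 2, Tfap2a and Meis2, were lower, beside 9.64% and 2.34% of all genes. The median of the 9 was 1.24, beside 0.54 for all genes. Tfap2a, a transcription factor of developing amacrine cells, was at 10.96, 9.04 and 11.89 in J6, B1 and F6 and at 14.41, 12.79 and 13.71 in A4, D1 and G3 (-3.01). Pax6, the paired-box factor of all amacrine cells, was at 13.52, 14.97 and 13.84 against 16.27, 15.96 and 15.82, a difference of -1.91 with no overlap but under 4-fold. Tfap2b, shared by amacrine and horizontal cells, was likewise detected in all 6 cells, at 13.11, 13.76 and 13.58 against 15.16, 13.95 and 15.93 (-1.53). Six3, a homeobox factor of retinal precursors and amacrine cells, was the higher one, at 10.70, 9.77 and 10.23 and undetected in the negative cells (2.47). It was under 4-fold with quantile normalization (1.64) and over the mean of its probe sets (0.68), and 2 of its 3 probe sets differed by less than 1. Barhl2 was at 11.62 in J6 and 12.17 in F6 and at the floor in B1, and at most 8.75 in the negative cells.

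Isl1 belongs to the LIM family. All 20 other listed LIM homeodomain factors, LIM-only proteins and their binding partners were measured, 14 were undetected in all 6 cells, 4 were compared and 0 were higher or lower, with a median difference of 0.20. With 9.64% of all genes higher and 2.34% lower, a count of 0 of 4 is near the background. Isl2, the paralog of Isl1, was at the floor in all 6 cells. Lhx2, at 13.13, and Ldb1, the shared cofactor of LIM factors, at 12.10, were detected in D1 alone. Ssbp3, a partner of Ldb1, was detected in 5 cells, at 13.12, 12.77 and 10.70 in J6, B1 and F6 and at 12.15 in A4 with a like level in G3, and the groups overlapped (1.60). Lmo4, a LIM-only protein, was detected in J6 (10.98) and G3 (11.30), 1 cell of each group.

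Among 43 measured genes of axon guidance and adhesion, 16 were compared. Of these, 3 were higher and 0 lower in the positive cells, beside 9.64% and 2.34% of all genes. Their median was 0.68, beside 0.54 for all genes. With an equal number of genes per cell (described further on), the median turned to -0.53 and 0 were higher or lower. Besides Plxna2 and Sema6a, the gene higher in 6 cells was Cdh2, N-cadherin. It was at 12.29, 12.03 and 12.05 in J6, B1 and F6 against 8.86, 7.64 and 8.36 in A4, D1 and G3 (3.83). Within P0, 5 of the 16 were higher, beside 12.1% of all genes. The netrin receptor Dcc was at 13.63 in B1 and 12.36 in F6 and at the floor in J6 and all negative cells, so leaving out J6 removed the overlap (3.57, and 5.35 within P0). Of the 3 probe sets of Dcc, 2 differed by less than 1, and the mean of all 3 gave 1.29 in 6 cells. The semaphorin receptor Plxna3 was at 13.75 in B1, 12.06 in F6 and 11.23 in J6 against 11.80, 7.78 and 8.63.

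Of 49 measured ion channels and receptors, 14 were compared, 2 were higher and 0 lower, near the 9.64% and 2.34% of all genes, with a median of -0.51. Cacng2, the AMPA receptor partner stargazin, was at 9.49, 13.60 and 12.68 in J6, B1 and F6 against 7.80, 7.64 and 7.64 (4.23). The mean of its 3 probe sets gave 2.03. Chrna3, a nicotinic acetylcholine receptor subunit, was at 11.06, 8.40 and 10.64 against 7.78, 7.64 and 7.64, and B1 was under the detection level (2.35). It was under 4-fold with quantile normalization (1.92) and over the mean of its probe sets (1.27). The potassium-chloride cotransporter Slc12a5 was at 15.60 in D1 and 11.21 in G3 but at the floor in A4, so it was not counted as lower (-3.50, and -1.83 over the mean of its probe sets). Of 26 neuropeptide, transmitter and other subtype genes, 22 were undetected in all 6 cells, 3 were compared and 1 was higher: the cannabinoid receptor Cnr1, at 12.48, 11.56 and 13.70 against the floor (4.94). Of the 2 Cnr1 probe sets, 1 differed by less than 1, and their mean gave 2.41.

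Markers of other retinal cells were low or uneven. All 14 measured photoreceptor genes and all 13 genes of pigment epithelium and lens were undetected in all 6 cells, and 10 of 11 bipolar genes were. Of 15 ganglion cell markers, 11 were undetected in all 6 cells, Pou4f1 and Pou4f3 among them. Gap43, a growth cone protein that every ganglion cell had, was higher, at 12.34, 11.82 and 11.64 in J6, B1 and F6 against the floor (4.29). The neurofilament gene Nefl was at 11.14 in J6 and 13.21 in B1 and at the floor in F6 and the negative cells. The summed log2 signal of the ganglion markers above the floor was 4.0 to 14.2 in the positive cells and 2.3 to 12.3 in the negative cells, which overlap. For glia it was 3.9 to 10.3 and 4.6 to 27.7, and for progenitor and cycle genes 7.1 to 11.1 and 3.3 to 21.1, with 2 genes compared and 0 called in each list. Horizontal cell genes (3 compared) and vascular and blood genes (1 compared) also had 0 called in 6 cells.

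Of 17 compared neuronal genes, Gap43 was higher and Elavl2, an RNA-binding protein of neurons, was lower (14.03, 14.02 and 11.23 in A4, D1 and G3 against 10.23, 8.27 and 7.64 in J6, B1 and F6, -4.38), with a median of -0.12. These counts are near the 9.64% and 2.34% of all genes. Of 11 compared housekeeping genes and 3 compared stress genes 0 were called, with medians of -0.49 and -0.17. Of 15 compared ribosomal protein genes, 3 were higher and 0 lower, beside 9.64% and 2.34% of all genes, with a median of 1.32 beside 0.54. The 3 were Rpl41 (2.45), Rplp2 (2.25) and Rpl27a (2.23). Over the mean of their probe sets, Rpl41 (1.25) and Rpl27a (1.28) were under 4-fold, and Rplp2 stayed at 2.25. The positive cells had more ribosomal protein genes detected, 14 to 15 against 11 to 13 in the negative cells, as they had more genes detected in all on average (3445 against 2310).

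Because the positive cells had more genes detected, the comparison was repeated on equal terms. The 1928 genes with the highest signal were kept in each cell, the number detected in A4, and each signal was divided by the signal at that rank. Then 15 genes were at least 4-fold higher and 98 lower with no overlap, in place of 437 and 106, so higher genes made up 13.3% of those called in place of 80.5%. With quantile normalization 306 were higher and 125 lower (71.0%). The median of all compared genes moved from 0.54 to 0.29 with quantile normalization and to -0.20 with equal numbers. The signal at that rank was 1008 in A4, 1371 in D1 and 3308 in G3, against 2327 to 3258 in the positive cells, so this setting changed both the number of genes and the scale. With the number alone made equal, 79 genes were within the 1928 in 3 positive and 0 negative cells and 34 in the reverse, so the former still outnumbered the latter.

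The leading genes were chosen for large differences in these same cells, so their behaviour on this scale is a description and partly fixed by the choice. All 15 top higher genes were among the 1928 highest genes of every positive cell and of no negative cell, and 11 of the 15 stayed at least 4-fold higher with no overlap. Of the 15 top lower genes 9 were among the 1928 in every negative and no positive cell, and 12 stayed at least 4-fold lower. Relative to the signal at that rank, the difference was 3.51 for Sox2, 2.82 for Megf10, -3.63 for Cbln2 and -3.92 for Dmxl2. For Slc18a3 it was 0.82, under 4-fold. The median of the starburst list was 0.82 on this scale, 6 of its members were within the 1928 in each positive cell, and 0 were in any negative cell. Outside the starburst list, Cdh2 (0.71), Gap43 (0.53), Cnr1 (1.17) and the 3 ribosomal genes, the highest of them Rpl27a at 1.20, were no longer 4-fold higher on this scale, nor were Cacng2 (1.07), Six3 (0.00), Chrna3 (0.00) and, of the starburst list, Plxna2 (0.82), Grm2 (0.84) and Sema6a (0.28). Among the lower genes, Slc6a11 (-0.13) and Elavl2 (-2.55, with overlap) lost the call and Tfap2a (-2.87) kept it. Besides the guidance genes, several list medians changed sign between settings. With equal numbers, that of LIM factors became -0.36, of subtype transcription factors -0.18 and of progenitor and cycle genes -0.45 (0.56 before). With quantile normalization, that of general amacrine genes became -0.01, of neuronal genes 0.67, of housekeeping genes 0.09 and of stress genes 0.51.

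**Figure D4:**
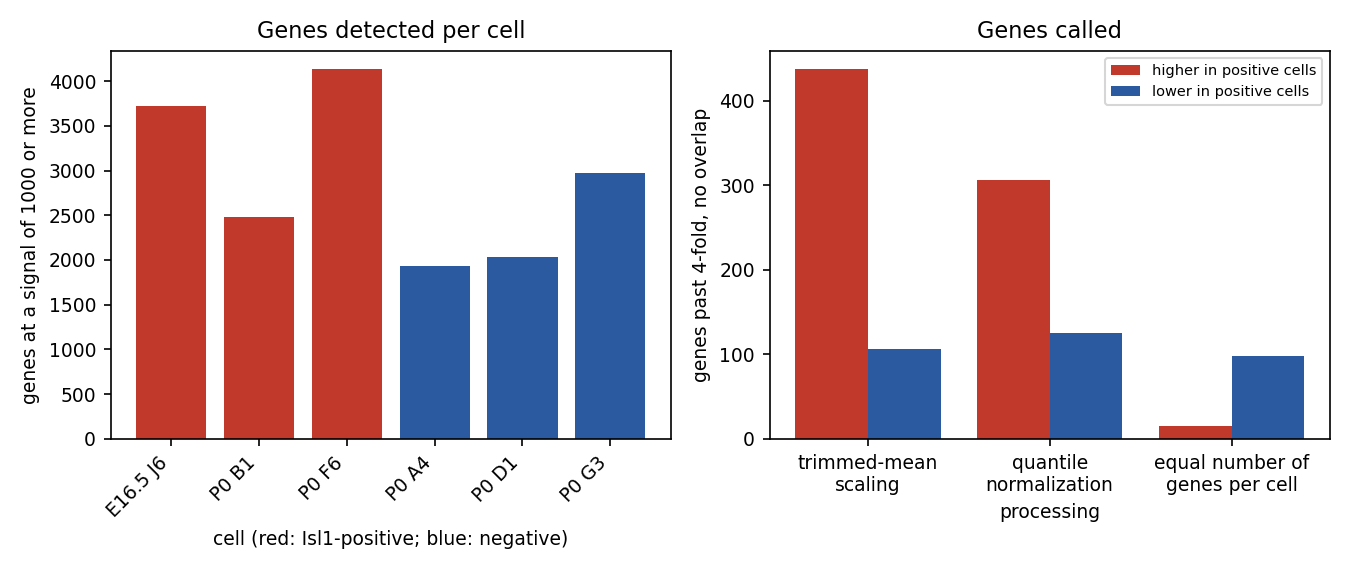
Genes detected in each of the 6 amacrine cells (left) and genes at least 4-fold higher or lower with no overlap under 3 processings of the same cells (right). With every array scaled to a trimmed mean of 500, 437 genes are higher and 106 lower, and with an equal number of genes per cell 15 are higher and 98 lower.

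A pair of P0 cells of nearer gene number ran the other way: B1, positive, had 2484 genes detected and G3, negative, had 2972. Between these 2 cells 1035 genes (22.8%) were at least 4-fold higher in B1 and 1344 (29.6%) lower, with a median of 0.00. All 15 top higher genes were at least 4-fold higher in B1, by 3.46 (Hmgn1) to 7.90 (Plagl1), and all 15 top lower genes were lower, by -3.66 (Mn1) to -7.55 (Meis2). Both cells were used to choose these genes, so their direction is partly fixed. In the 16 cells that are no amacrine cells, which the choice did not use, the median Spearman correlation of a gene with the number of genes detected was 0.19 over 3918 genes, 0.21 over 376 of the higher genes and 0.17 over 93 of the lower genes. In each of these correlations, both values of a cell come from the same array.

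Leaving out each of the 6 cells in turn, all 15 higher and all 15 lower genes stayed past 4-fold, which their choice for large differences without overlap in these cells makes likely. Single cells still set some sizes: Meis2 ran from -3.62 to -7.25 and Nprl2 from -3.84 to -6.27. Without D1, the cell with glial and progenitor transcripts, the difference was 7.28 for Sox2, 6.59 for Megf10, 4.60 for Slc18a3, -6.24 for Nr4a2 and -7.25 for Meis2. Gad2 moved from -4.54 to -6.81 without D1.

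The top genes were then followed into the 13 ganglion cells, of which 10 had Isl1 detected and 3 did not, one of these, F1, just under the level at log2 9.93. Of the 15 top higher genes, Isl1-positive ganglion cells had 2 to 11 detected (median 6.5) and Isl1-negative ganglion cells 4 to 6 (median 5). Photoreceptors had 2 to 5 (median 2). Every Isl1-positive amacrine cell had all 15, which the choice of the genes in these cells makes likely. The ganglion cell with 11 had 4137 genes detected in all and 1 with 2 had 1518, but F1, with 4352, had 5. The part of gene number in these counts was not tested, and no like count was made for all compared genes. Isl1 level in ganglion cells ran from log2 11.56 to 16.04 where detected, which spans the amacrine values. The ranges of ganglion cells with and without Isl1 overlapped. Of the 15 top lower genes these ganglion cells had 3 to 9 (median 7) and 4 to 8 (median 6).

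Across all 22 cells, 9 of the 18194 genes were detected in the 3 Isl1-positive amacrine cells and in none of the 19 others. They were singled out after their values were seen: Megf10, Slc18a3, Abcc8 (the sulfonylurea receptor), Cmtm8, Cpne4 (a copine), Dlg3 (the synaptic scaffold SAP102), Mmp17 (a membrane-anchored metalloproteinase), Moxd1 and Parm1. Cpne4 was at 11.84, 12.26 and 12.73 in J6, B1 and F6, Dlg3 at 11.75, 12.54 and 12.49 and Cmtm8 at 12.13, 13.23 and 12.91. Parm1 in B1 (10.10) and Moxd1 (10.19) and Mmp17 (10.32) in J6 were just above the detection level of 9.97. In the 19 other cells the highest value of these 9 genes was 9.94, for Abcc8, just under the detection level. In the reverse, Shd alone was detected in the 3 negative cells and in no other, at 11.50, 11.91 and 10.38 in A4, D1 and G3, with J6 just under the level at 9.78. The positive cells had more genes detected on average (3445 against 2310), and the part this plays in the 2 counts was not tested.

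Over the 4534 compared genes, pairs of positive cells had Spearman correlations of 0.23 to 0.41 (median 0.25), pairs of negative cells 0.15 to 0.18 (median 0.17) and mixed pairs 0.14 to 0.24 (median 0.17). The highest, 0.41, was between J6 and F6, the 2 cells with the most genes detected, which also shared Fezf1 and Barhl2 where B1 had neither. The negative cells were thus no closer to each other than to the positive cells by this measure. In all, 371 genes were detected in all 6 amacrine cells.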

How the data were processed

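Each sample was 1 mouse retinal cell, dissociated with papain, amplified from an oligo dT primer through 35 cycles of PCR and hybridised to its own Affymetrix array, per the labels' protocols. The values deposited by the authors are signal intensity on a linear scale, made with MAS5 per the submitters' processing notes. The sources used here name neither batches nor an annotation version. The array of B1 had a trimmed mean of 18.1, against 500 in the other 21, and was multiplied by 27.6.

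Of 45101 probe sets, 34958 had 1 gene symbol, 932 several and 9211 none, and 34754 of the first were matched to RefSeq gene numbers. Where a gene had several probe sets, the brightest on average across the 22 cells was taken. The deposited intensities were floored at 200 and put on the log2 scale. PCR from 1 cell can lose transcripts, so a gene at the floor is undetected, not absent, and the number of arrays limits precision. The members, the 20 gene lists and the rules were chosen with earlier results of these data known. Genes named are the 15 with the largest non-overlapping differences in each direction that kept direction within P0, all measured members of the starburst, GABA and glycine, and LIM lists, and up to 5 compared members of each other list, with Isl1 as the splitting gene; Pax6, markers of other cell types and genes found in 1 group alone are described after their values were seen. Alternatives were other floors, filters, quantile normalization, probe set means, group medians, leaving out each cell and equal gene numbers. Scripts were tested on simulated data and used Python 3.11.15, numpy 2.4.6, pandas 2.3.3, scipy 1.17.1 and matplotlib 3.10.9.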

Additional observations from a re-analysis of the deposited data

Results flagged for a closer look

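For each named gene, the 5 P0 amacrine cells were examined for 1 cell far from the other 4 (a gap over 0.71 of the range). Chance gives such a gap about 1 time in 20 for normally distributed values. That rate does not hold where cells are tied at the floor. Of 114 sets of values, 17 had such a cell, and in most of them the other cells sat at or near the floor of log2 7.64, so few values could vary.

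In the positive cells, Chat was at 13.88 in B1, Nefl at 13.21 in B1, Fezf1 at 10.46 in F6, Barhl2 at 12.17 in F6, Zfhx4 at 13.78 in F6 and Chrna3 at 10.64 in F6. Among these, Chat is the cholinergic enzyme and Fezf1, Barhl2 and Zfhx4 are transcription factors that J6, the E16.5 cell, also had, at 12.34, 11.62 and 12.08. In D1, the LIM genes Lhx2 and Ldb1 stood out at 13.13 and 12.10. In A4, Onecut2 was high at 12.31, Syt1, a synaptic vesicle calcium sensor, was at the floor (7.64) where the other 4 P0 cells had it, and Tmsb4x was low at 13.36. The remaining 6 were under the detection level: Lhx3 at 7.72 and Lhx5 at 7.82 in A4, Slc6a9 at 7.90 and Lhx4 at 7.77 in D1, and Slc6a5 at 9.44 and Lmx1b at 8.45 in G3.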

How the results depend on the processing

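The count of higher genes, 437, moved to 288 with a floor of 500, to 261 with the mean over probe sets and to 15 with an equal number of genes per cell, an alternative added after seeing the data. The count of lower genes, 106, moved to 45 with the mean over probe sets. The median of the starburst list, 4.59, moved to 5.59 with a floor of 100, 3.27 with a floor of 500, 2.87 with no filter and 0.82 with equal numbers. The floor sets these sizes by construction, and for the probe set means the cause was not tested. Leaving out 1 cell in turn gave 530 to 854 higher genes (854 without B1, 803 without G3), 135 to 304 lower genes (299 without A4, 304 without D1, 261 without G3) and a starburst median of 4.27 to 4.60, and fewer cells overlap less by construction. The other settings tried kept both counts within 1.5 times. Of 89 named genes, equal numbers moved 53 by more than the spread between cells, and none of those counted as higher or lower changed sign in any setting tried. No paired analysis was possible because replicate numbers only name the cells in accession order.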
